A study of Mus musculus with 12 samples.

Results

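The 10 genes described here encode the type 2 cytokines interleukin (IL)-4, IL-5, IL-9 and IL-13 (Il4, Il5, Il9, Il13), the epithelial cytokines IL-25 and thymic stromal lymphopoietin (Il25, Tslp), the receptor chains that bind IL-4 and IL-13 (Il4ra, Il13ra1, Il13ra2), and the T helper 2 transcription factor GATA3 (Gata3). They were taken by symbol from a list and are 10 of the 19937 genes measured. Each was read by 1 probe set, a group of array probes summarised as a single value. The study hybridised RNA from the whole lungs of 12 Balb/c mice to Affymetrix mouse Gene ST arrays, with 1 array for each mouse and 3 mice in each of 4 groups. Eosinophilic mice (7, 8 and 9) were sensitised by intraperitoneal injection of house dust mite extract containing 0.75 DU of each of the allergens Der f and Der p (DU is the unit given for the extract), on 1.5 mg of the adjuvant Al(OH)3, on days 0, 7 and 21. They were then challenged through the nose on days 26 to 28 with a similar dose. Mixed mice (15, 16 and 17) received 0.75 DU of each allergen through the nose alone, weekly and 4 times in all. Neutrophilic mice (23, 24 and 25) received 7.5 DU of each allergen on that same weekly schedule. Control mice (1, 2 and 3) received PBS through the nose. Age was not given. The eosinophilic model differs from the other two in route, adjuvant and timing at once, so these cannot be told apart, whereas mixed and neutrophilic mice differ in the dose alone. Whole lung holds many cell types, so fewer cells of a type and less RNA per cell cannot be told apart either.

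Type 2 immunity is the arm of the immune system that acts against helminths and drives much of allergic asthma. Damaged airway epithelium releases TSLP, IL-25 and IL-33, which act on group 2 innate lymphoid cells, dendritic cells and T helper cells. Those lymphocytes, under the control of GATA3, secrete IL-5, which sustains eosinophils, and IL-4, IL-9 and IL-13. IL-4 and IL-13 share a receptor made of the IL-4 receptor alpha chain and IL-13 receptor alpha 1, which acts through the transcription factor STAT6 on macrophages and airway epithelium. IL-13 receptor alpha 2 also binds IL-13 and is mostly regarded as a decoy.

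Il4, Il13 and Il5 lie in a cytokine cluster on mouse chromosome 11, and Il4ra lies on chromosome 7. The 250 bases before the annotated start of these 4 genes are shown because the results below turn on them. They come from RefSeq (GRCm38.p6) and are written in the direction of transcription. Capitals mark a STAT6-like match (TTCNNNNGAA) or a GATA match (AGATAA). The windows are chr11:53618666-53618915 on the minus strand for Il4, chr11:53634703-53634952 on the minus strand for Il13, chr11:53720544-53720793 on the plus strand for Il5 and chr7:125552021-125552270 on the plus strand for Il4ra.
Il4: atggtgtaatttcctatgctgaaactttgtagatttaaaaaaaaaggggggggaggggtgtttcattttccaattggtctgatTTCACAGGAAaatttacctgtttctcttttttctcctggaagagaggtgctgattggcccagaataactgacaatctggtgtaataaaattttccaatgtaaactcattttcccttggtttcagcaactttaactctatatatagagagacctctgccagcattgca
Il13: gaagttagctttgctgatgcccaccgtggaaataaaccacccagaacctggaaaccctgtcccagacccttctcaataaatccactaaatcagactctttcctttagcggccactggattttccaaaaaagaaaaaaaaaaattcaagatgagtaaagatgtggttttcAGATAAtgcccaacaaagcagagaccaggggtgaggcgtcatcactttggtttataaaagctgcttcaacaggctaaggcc
Il5: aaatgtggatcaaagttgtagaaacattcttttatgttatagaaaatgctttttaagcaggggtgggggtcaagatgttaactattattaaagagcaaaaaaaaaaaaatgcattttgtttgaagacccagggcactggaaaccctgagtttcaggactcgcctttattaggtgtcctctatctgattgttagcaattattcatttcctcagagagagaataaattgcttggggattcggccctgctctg
Il4ra: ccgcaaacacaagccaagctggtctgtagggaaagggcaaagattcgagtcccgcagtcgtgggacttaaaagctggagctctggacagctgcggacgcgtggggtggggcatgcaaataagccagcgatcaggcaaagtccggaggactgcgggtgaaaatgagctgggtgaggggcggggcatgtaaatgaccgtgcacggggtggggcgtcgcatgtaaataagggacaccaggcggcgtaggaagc

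The Il4 window held 1 STAT6-like match, TTCACAGGAA, starting 167 bases before the start of the gene. The Il13 window held 1 GATA match, 81 bases before the start. The Il5 and Il4ra windows held neither the STAT6-like forms (TTCNNNGAA or TTCNNNNGAA) nor AGATAA on either strand. Of the 10 genes, 8 had a window in the RefSeq table, and Il4 had a second one without a match. Il9 also held a STAT6-like match (TTCTGAGGAA, 184 bases before the start) and Il13ra2 a GATA match, 15 bases before it. Among all 32851 windows, 12.4% held a STAT6-like match and 9.99% a GATA match, against 2 of 9 windows each for these genes. The TTCNNNGAA and TTCNNNNGAA forms read the same on both strands. A match describes these letters and is no evidence of binding.

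The array from eosinophilic mouse 7 was unlike the other 11, and this bears on every result below. The SD of its values was 0.995 log2, its correlation with the median of the rest was 0.356, and its 25th percentile was 4.92. Eosinophilic mouse 9 and neutrophilic mouse 23 also had raised 25th percentiles, of 4.49 and 4.53, against 3.80 to 4.19 on the remaining 9 arrays. The mean of 8 lung epithelial markers was 6.39 log2 on the array of mouse 7 and 9.84 to 10.9 on the other 11, although Scgb3a2, a club cell gene on that list, fell in eosinophilic mice with both sets of arrays (log2 -2.06, adjusted p = 0.0347, with 12). Results are given with all 12 arrays and with the 11 that leave out mouse 7, where 2 eosinophilic mice remain.

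None of the 10 genes passed an adjusted p of 0.05 in any model against control, with either set of arrays (limma, Benjamini-Hochberg adjustment over 19937 genes, 3 mice a group). The background share of all genes past that threshold was 0.497% in eosinophilic, 0.471% in mixed and 2.11% in neutrophilic mice with 12 arrays. With 11 arrays it was 1.33%, 2.99% and 9.47%. At an unadjusted p of 0.05, 3 of the 10 genes passed in eosinophilic mice (Il5, Tslp and Il13ra2; 28.2% of all genes did), 1 in mixed mice (Il5; 7.95%) and 0 in neutrophilic mice (14.7%). With 11 arrays these counts were 2 (16.4%), 4 (12.9%) and 1 (23.1%). Across the 4 groups together, the smallest adjusted p of the moderated F test was 0.267 for Tslp with 12 arrays and 0.124 for Il4ra with 11, where 0.883% and 4.6% of all genes passed.

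**Figure D1:**
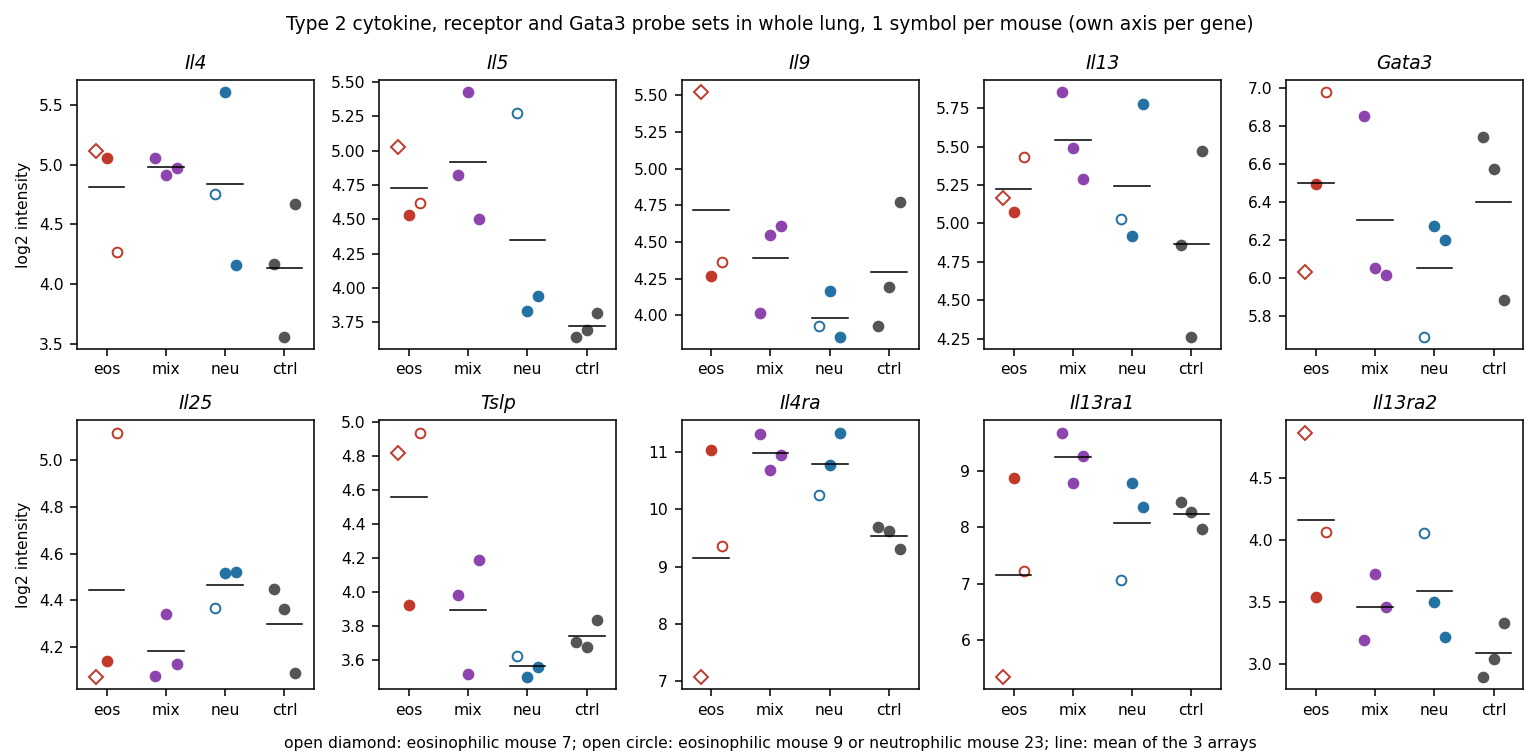
Log2 intensity of the 10 genes (vertical axis of each panel) in each of the 12 mice, 1 point per mouse, by group. Il4ra lay between 10.24 and 11.33 in all 6 mixed and neutrophilic mice and between 9.30 and 9.69 in control mice.

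Several of the genes were nevertheless separate from control in the deposited values, Il5 in every model and the others not in all. In mixed mice 4 of the 10 genes (Il4, Il5, Il4ra and Il13ra1) lay above every control value, while 9.16% of all genes did so and 13.9% lay below every control value. In eosinophilic mice 3 genes did (Il5, Tslp and Il13ra2; 11.1% of all genes). In neutrophilic mice Il5 and Il4ra lay above control (12.6% of all genes) and Tslp lay below it (20.4%). The median log2 change of the 10 genes was 0.39 in eosinophilic, 0.52 in mixed and 0.27 in neutrophilic mice, while the median over all genes was 0.00583, 0.00455 and 0.0482 in the same models.

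IL-5, made by T helper 2 cells and innate lymphoid cells, had the largest difference of the 4 type 2 cytokine genes in eosinophilic and mixed mice. Il5 measured 5.02, 4.53 and 4.62 log2 in eosinophilic mice, 4.83, 5.42 and 4.50 in mixed mice, 5.28, 3.84 and 3.94 in neutrophilic mice, and 3.65, 3.70 and 3.82 in control mice. All 9 sensitised mice therefore lay above the highest control, although neutrophilic mice 24 and 25 exceeded it by little. The highest eosinophilic and neutrophilic values were those of mice 7 and 23, whose arrays had raised 25th percentiles. The part of that in the Il5 differences was not tested. The log2 difference from control was 1.20 in mixed mice (SE 0.38, 95% interval 0.36 to 2.03, 2.29-fold), with adjusted p = 0.276 on 12 arrays and 0.103 on 11. In eosinophilic mice it was 1.01 (SE 0.38, adjusted p = 0.138), and in neutrophilic mice 0.63 (SE 0.38, adjusted p = 0.508). A fit of mixed and control arrays alone gave Il5 an adjusted p of 0.00778, and called 1689 of the 19937 genes. Quantile normalization lowered the eosinophilic difference to 0.46. It also placed neutrophilic mouse 24 (3.96) within the control range (3.86 to 3.99), so that the neutrophilic group overlapped control.

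Il4 measured 5.12, 5.06 and 4.26 log2 in eosinophilic mice, 5.06, 4.91 and 4.97 in mixed mice, 4.75, 5.60 and 4.16 in neutrophilic mice, and 4.17, 3.56 and 4.67 in control mice. Mixed mice were tightly grouped and sat above all controls, whereas eosinophilic mouse 9 and neutrophilic mouse 25 fell within the control range. The log2 difference was 0.85 in mixed mice (95% interval -0.02 to 1.72, adjusted p = 0.662), 0.68 in eosinophilic mice (adjusted p = 0.247) and 0.71 in neutrophilic mice (adjusted p = 0.471). With 11 arrays the adjusted p in mixed mice was 0.348. Quantile normalization lowered the eosinophilic difference to 0.15.

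Il13, whose product drives mucus and airway hyperreactivity, measured 5.17, 5.07 and 5.43 log2 in eosinophilic mice, 5.85, 5.49 and 5.29 in mixed mice, 5.03, 4.92 and 5.77 in neutrophilic mice, and 4.86, 4.26 and 5.47 in control mice. Control mouse 3 lay inside or above the range of every model, so no group was separate from control. The log2 difference was 0.68 in mixed mice (95% interval -0.08 to 1.44, adjusted p = 0.752), 0.36 in eosinophilic mice (95% interval -0.40 to 1.12) and 0.38 in neutrophilic mice (95% interval -0.38 to 1.13). These intervals leave room for a rise of about the size seen for Il5. In eosinophilic mice the difference was 0.01 after quantile normalization.

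IL-9, a mast cell and goblet cell growth factor, gave no group separate from control. Il9 measured 5.52, 4.27 and 4.37 log2 in eosinophilic mice, 4.01, 4.54 and 4.61 in mixed mice, 3.93, 4.17 and 3.86 in neutrophilic mice, and 3.93, 4.19 and 4.77 in control mice. The high eosinophilic value belonged to mouse 7, and the log2 difference from control was 0.42 with that array and 0.02 without it. Mixed mice differed by 0.09 (95% interval -0.70 to 0.88) and neutrophilic mice by -0.31 (95% interval -1.11 to 0.48).

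TSLP and IL-25 are made mainly by airway epithelium, IL-25 by its tuft cells. Tslp measured 4.82, 3.93 and 4.94 log2 in eosinophilic mice, 3.99, 3.52 and 4.19 in mixed mice, 3.63, 3.50 and 3.56 in neutrophilic mice, and 3.71, 3.68 and 3.84 in control mice. The eosinophilic values lay above, and the neutrophilic values below, every control value. The log2 difference was 0.82 in eosinophilic mice (SE 0.31, 95% interval 0.15 to 1.48, adjusted p = 0.134), 0.16 in mixed mice (adjusted p = 1) and -0.18 in neutrophilic mice (adjusted p = 0.82). Neutrophilic mice were 0.996 log2 below eosinophilic mice (SE 0.31, adjusted p = 0.39, without overlap), and 0.87 below them with 11 arrays (adjusted p = 0.507). The high Tslp readings were those of mice 7 and 9, whose arrays also had raised 25th percentiles, and the part of that in the Tslp difference was not tested. After quantile normalization the eosinophilic difference was 0.30. Without eosinophilic mouse 8, which leaves only mice 7 and 9 in that group, Tslp passed the threshold (log2 1.14, adjusted p = 0.00859). In that fit 8264 of the 19937 genes passed in eosinophilic mice against control, so the Tslp call was not particular to this gene.

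Il25 measured 4.07, 4.14 and 5.12 log2 in eosinophilic mice, 4.07, 4.34 and 4.13 in mixed mice, 4.37, 4.52 and 4.52 in neutrophilic mice, and 4.45, 4.36 and 4.09 in control mice. All 3 models overlapped control, and neutrophilic mice lay above mixed mice without overlap, as 4.67% of all genes did. The log2 difference from control was -0.12 in mixed mice (95% interval -0.77 to 0.54) and 0.17 in neutrophilic mice (95% interval -0.49 to 0.82). In eosinophilic mice the Il25 difference was 0.15 with 12 arrays and 0.33 with 11 (95% interval -0.32 to 0.98). Il25, Tslp, Il9 and Il13ra2 did not reach 5 log2 on 3 arrays, so a filter on dim probe sets kept 6 of the 10 genes. No detection calls were used here, so a low value cannot be told from no signal.

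**Figure D2:**
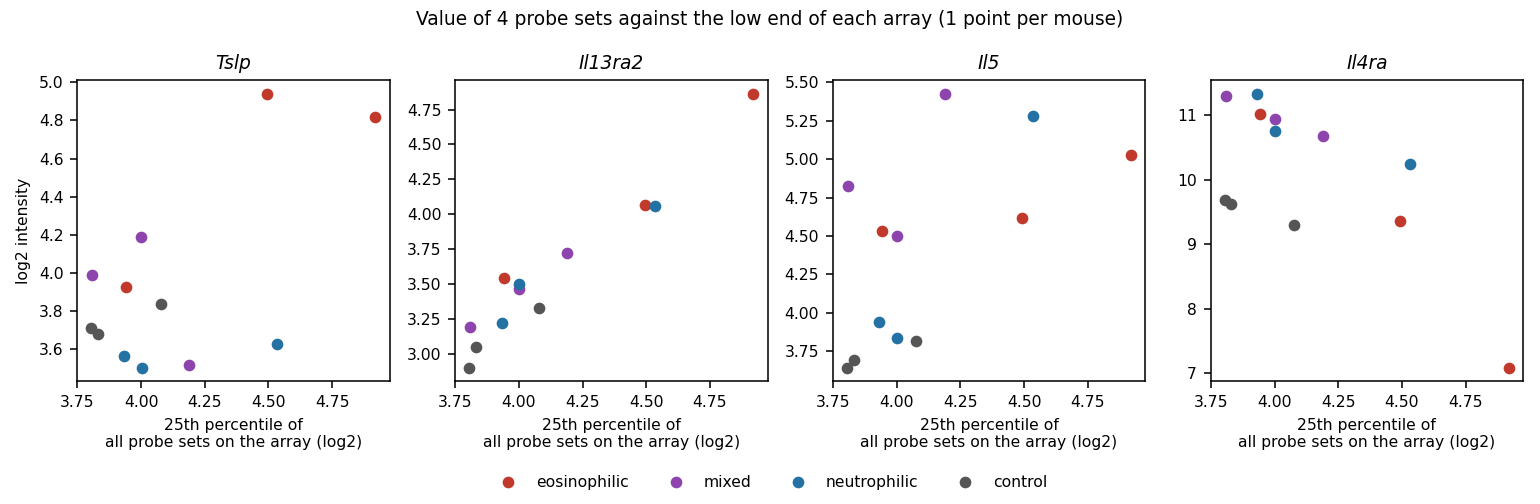
Log2 intensity of Tslp, Il13ra2, Il5 and Il4ra (vertical axes) against the 25th percentile of all probe sets on the same array (horizontal axes, log2), 1 point per mouse, coloured by group. Il13ra2 was highest on the 3 arrays with the highest 25th percentiles (4.92, 4.53 and 4.49), and Il4ra was lowest on the array of mouse 7.

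Among the receptor genes, Il4ra had the largest difference in mixed and neutrophilic mice. It measured 7.08, 11.02 and 9.35 log2 in eosinophilic mice, 11.30, 10.68 and 10.95 in mixed mice, 10.24, 10.76 and 11.33 in neutrophilic mice, and 9.69, 9.62 and 9.30 in control mice. Every mixed and neutrophilic mouse lay above every control mouse, while eosinophilic mice were spread on both sides of control, with mouse 8 high and mouse 7 low. The mean was 10.98 ± 0.31 in mixed mice, 10.78 ± 0.55 in neutrophilic mice and 9.54 ± 0.20 in control mice (SD, n = 3 each). The log2 difference from control was 1.44 in mixed mice (2.72-fold) and 1.24 in neutrophilic mice (2.36-fold), the largest of the 10 genes in each model.

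Leaving out mouse 7 narrowed the spread of Il4ra without bringing it past the threshold. With 12 arrays the SE was 0.72 and the adjusted p was 0.705 in mixed and 0.481 in neutrophilic mice. With 11 arrays the same differences had an SE of 0.39, with adjusted p = 0.0699 (95% interval 0.60 to 2.28) and 0.0648 (95% interval 0.40 to 2.08). Il4ra passed when only the 2 groups compared were fitted (adjusted p = 0.00133 in mixed and 0.0296 in neutrophilic mice). Those fits called 1689 and 2124 of the 19937 genes. Il4ra also passed after quantile normalization of the 11 arrays (adjusted p = 0.00752 and 0.00497), a setting chosen after these data were seen. There 750 and 2095 genes were called. In eosinophilic mice the log2 difference was -0.38 with 12 arrays, 0.65 with 11 (95% interval -0.29 to 1.59) and 0.41 after quantile normalization of 12, so its direction was not settled.

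Il13ra1 measured 5.36, 8.87 and 7.23 log2 in eosinophilic mice, 9.68, 8.78 and 9.26 in mixed mice, 7.07, 8.79 and 8.36 in neutrophilic mice, and 8.46, 8.27 and 7.97 in control mice. Mixed mice lay above all controls, and neutrophilic and eosinophilic mice spread around them. The lowest values in each of those models came from mice 7, 9 and 23, the arrays with raised 25th percentiles. The log2 difference was 1.01 in mixed mice (SE 0.70, adjusted p = 1), with 11 arrays SE 0.46, 95% interval 0.01 to 2.0 and adjusted p = 0.378. Fitted with the control arrays alone, mixed mice gave an adjusted p of 0.024, in a fit that called 1689 genes. In neutrophilic mice it was -0.16 (95% interval -1.68 to 1.36), and 0.09 after quantile normalization. In eosinophilic mice it was -1.08 with 12 arrays (adjusted p = 0.283) and -0.18 with 11 (adjusted p = 0.874). Leaving out eosinophilic mouse 8 gave a called Il13ra1 difference of -1.94 (adjusted p = 0.0205), in a fit that called 8264 of the 19937 genes.

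Il13ra2, the decoy-like chain, measured 4.86, 3.54 and 4.06 log2 in eosinophilic mice, 3.19, 3.72 and 3.46 in mixed mice, 4.06, 3.50 and 3.22 in neutrophilic mice, and 2.90, 3.05 and 3.33 in control mice. In the deposited values eosinophilic mice lay above control, and mixed and neutrophilic mice each overlapped it. The log2 difference in eosinophilic mice was 1.06 (SE 0.36, 95% interval 0.29 to 1.84, adjusted p = 0.12) with 12 arrays and 0.71 with 11 (adjusted p = 0.282). It was 0.37 in mixed mice and 0.50 in neutrophilic mice. The probe set followed the 25th percentile of its array, with the 3 highest readings on mice 7, 9 and 23, and the part of this in the difference was not tested. Quantile normalization lowered the eosinophilic Il13ra2 difference to 0.57, and without mouse 8 it was 1.37 (adjusted p = 0.0108). The fit without mouse 8 called 8264 of the 19937 genes. In the quantile-normalized values the mice of every model lay above the highest control (3.33). The lowest were 3.70 in eosinophilic, 3.53 in mixed and 3.36 in neutrophilic mice, so the neutrophilic margin was slight. The share of all genes above control in those values was not computed.

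GATA3 also marks cells other than T helper 2 cells in lung, among them innate lymphoid cells. Gata3 measured 6.03, 6.50 and 6.98 log2 in eosinophilic mice, 6.85, 6.05 and 6.02 in mixed mice, 5.69, 6.28 and 6.20 in neutrophilic mice, and 6.74, 6.57 and 5.89 in control mice. All groups overlapped control. The log2 difference was 0.10 in eosinophilic mice (95% interval -0.68 to 0.88), -0.09 in mixed mice (95% interval -0.87 to 0.68) and -0.35 in neutrophilic mice (95% interval -1.12 to 0.43). With 11 arrays the eosinophilic Gata3 difference was 0.33 (95% interval -0.43 to 1.10).

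**Figure D3:**
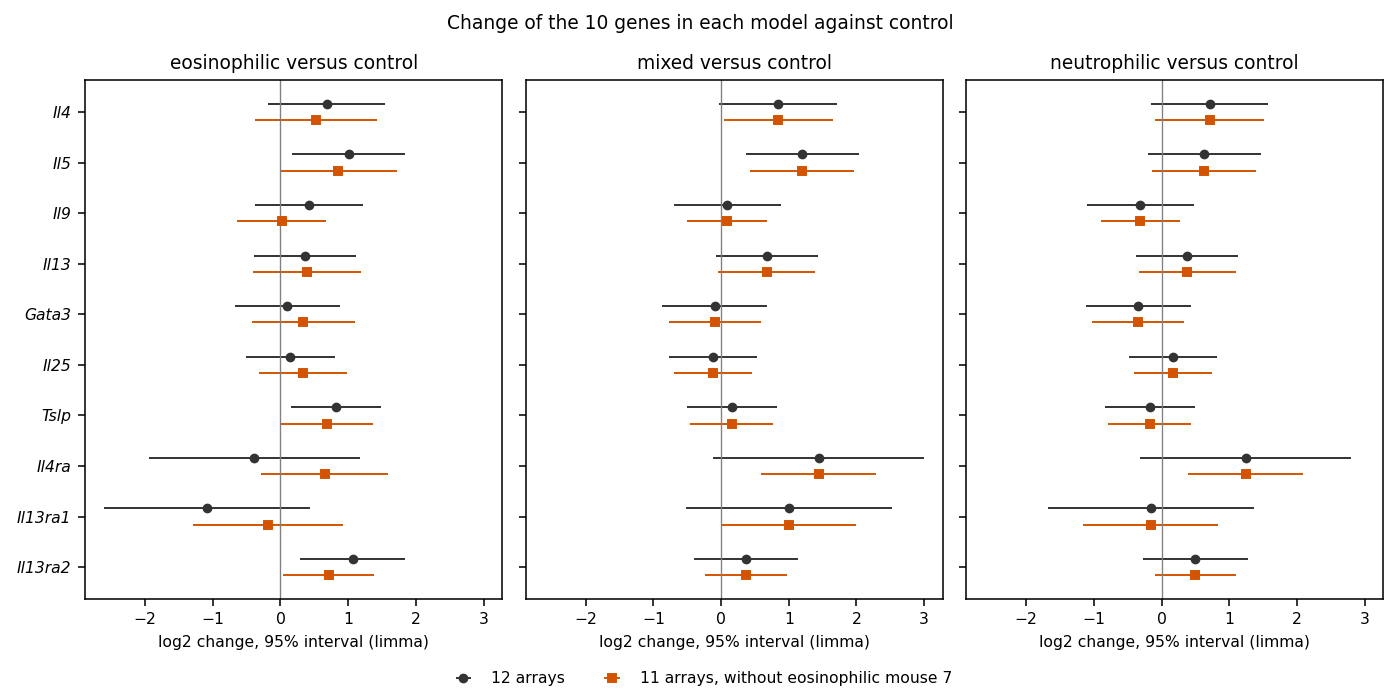
Log2 change from control (horizontal axis) of the 10 genes (rows) in eosinophilic, mixed and neutrophilic mice, with 95% intervals from limma. Dark circles are the fit of 12 arrays and orange squares the fit of 11. The mixed Il4ra interval runs from -0.11 to 2.99 in the first and from 0.60 to 2.28 in the second.

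Between the models, none of the 10 genes passed in mixed against eosinophilic mice (0.00502% of all genes passed with 12 arrays and 0.0502% with 11), in neutrophilic against eosinophilic mice (0.115% and 0.191%) or in neutrophilic against mixed mice (0% with both). At an unadjusted limma p of 0.05 and 12 arrays, 2 of the 10 passed in mixed against eosinophilic mice (16.7% of all genes), 2 in neutrophilic against eosinophilic mice (10.2%) and 0 in neutrophilic against mixed mice (3.1%). With 11 arrays 1 passed in each (7.24%, 7.78% and 7.32% of all genes). Il4ra was 1.83 log2 higher in mixed than in eosinophilic mice (adjusted p = 0.295) and Il13ra1 2.09 higher (adjusted p = 0.295). With 11 arrays those differences were 0.79 (95% interval -0.15 to 1.73) and 1.19 (95% interval 0.08 to 2.3, adjusted p = 0.681). Without eosinophilic mouse 8, which leaves mice 7 and 9, both passed (Il4ra 2.76, adjusted p = 0.00619, and Il13ra1 2.95, adjusted p = 0.00589). That fit called 5979 of the 19937 genes in mixed against eosinophilic mice. Neutrophilic mice lay below eosinophilic mice without overlap for Tslp and Il9 (3.99% of all genes did). The Il9 difference was -0.73 with 12 arrays and -0.33 with 11. Il13ra1 was 1.17 log2 lower in neutrophilic than in mixed mice (adjusted p = 1 with 12 arrays and 0.608 with 11). Comparisons with a shared control group are not independent of each other.

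The partner chains of these receptors were read next to them. Csf2rb, the signalling chain that IL-5 shares with IL-3 and GM-CSF, measured 6.97, 9.64 and 9.70 log2 in eosinophilic mice, 10.29, 9.30 and 9.81 in mixed mice, 9.29, 10.33 and 10.49 in neutrophilic mice, and 7.89, 7.48 and 7.30 in control mice. All mice of the 3 models except mouse 7 lay above control. Csf2rb rose in each model with 11 arrays, by 2.11 log2 in eosinophilic (adjusted p = 0.0197), 2.25 in mixed (adjusted p = 0.00315) and 2.48 in neutrophilic mice (adjusted p = 0.000932), and passed in none with 12 (adjusted p = 0.204, 0.177 and 0.0626). Its near-identical neighbour Csf2rb2 did likewise, and cross-hybridisation between the 2 genes was not tested. Il5ra, the IL-5 binding chain, was separate from control in all 3 models, with log2 differences of 0.58 in eosinophilic, 0.39 in mixed and 0.50 in neutrophilic mice (adjusted p = 0.158, 0.945 and 0.374).

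Receptor chains of the other cytokines did not pass. Il9r differed from control by 0.24, 0.07 and -0.10 log2 in eosinophilic, mixed and neutrophilic mice. For Il17rb, the IL-25 receptor, the differences were 0.47, 0.10 and 0.13, and 0.03 in eosinophilic mice without mouse 7. Crlf2, the TSLP receptor, differed by -0.43, 0.33 and 0.75, with adjusted p = 0.336 for the last on 12 arrays and 0.115 on 11. Its partner Il7r differed by 0.29, 1.42 and 0.63, and overlapped control in each model. In mixed mice that overlap was slight, with values of 7.41 to 8.88 log2 against 6.35 to 7.45 in control mice. Of the 9 measured chains on this list, 0 passed with 12 arrays in any model, and 2 (Csf2rb and Csf2rb2) in each with 11. Their median log2 change was 0.29, 0.39 and 0.63.

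Stat6, the transcription factor below the IL-4 receptor, did not pass: it differed from control by -1.50 log2 in eosinophilic mice with 12 arrays (adjusted p = 0.163), -0.51 with 11, -0.21 in mixed and -0.25 in neutrophilic mice. Of the feedback inhibitors of cytokine signalling, Socs3, Socs1 and Cish passed in at least 1 model, and Socs2 in none. Socs3 measured 5.82, 8.45 and 7.93 log2 in eosinophilic mice, 9.77, 9.05 and 9.23 in mixed mice, 9.33, 10.03 and 10.73 in neutrophilic mice, and 6.48, 6.54 and 6.25 in control mice. It rose by 2.93 in mixed (adjusted p = 0.0464) and 3.61 in neutrophilic mice (adjusted p = 0.0105). Socs1, which restrains IL-4 and interferon signalling, rose by 2.46 in neutrophilic mice (adjusted p = 0.0123), and Cish by 2.61 (adjusted p = 0.0171). Irs2, an adaptor of the IL-4 receptor, rose by 1.02 in neutrophilic mice with 11 arrays (adjusted p = 0.024). Of 14 measured genes on this list, 0, 1 and 3 rose in eosinophilic, mixed and neutrophilic mice with 12 arrays, and 1, 3 and 4 with 11. No gene on it fell.

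Several genes known to respond to IL-4 and IL-13 rose in each model. Of 19 measured, 3 rose in eosinophilic, 8 in mixed and 9 in neutrophilic mice with 12 arrays, and 12, 12 and 11 with 11, where 1 (Postn) also fell in neutrophilic mice. The median log2 change of the list was 1.91, 2.65 and 2.32 with 12 arrays. Clca1, a goblet cell product, measured 5.88, 10.01 and 11.15 log2 in eosinophilic mice, 12.004, 11.73 and 11.55 in mixed mice, 11.62, 11.20 and 11.13 in neutrophilic mice, and 4.27, 4.55 and 4.41 in control mice. It rose by 7.35 in mixed (adjusted p = 0.00829) and 6.91 in neutrophilic mice (adjusted p = 0.00718). In eosinophilic mice the Clca1 difference was 4.61 with 12 arrays (adjusted p = 0.0547) and 6.17 with 11 (adjusted p = 9.28e-07). The airway anion exchanger Slc26a4 rose by 6.20 in mixed and 5.85 in neutrophilic mice (adjusted p = 0.0137 and 0.00977).

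Ccl11, an eosinophil attractant, rose by 4.49 log2 in mixed and 4.16 in neutrophilic mice (adjusted p = 0.00829 and 0.00755), and its 2.59 in eosinophilic mice had adjusted p = 0.0608 with 12 arrays and 0.0101 with 11. Arg1, an arginase of alternatively activated macrophages, measured 6.73, 10.36 and 8.94 log2 in eosinophilic mice, 7.45, 7.19 and 7.65 in mixed mice, 7.23, 7.80 and 7.59 in neutrophilic mice, and 4.70, 4.93 and 4.69 in control mice. With 11 arrays Arg1 was 2.11 log2 lower in neutrophilic than in eosinophilic mice (adjusted p = 0.0338), the only gene of the pathway lists to pass between models. Chil3 and Chil4, chitinase-like genes, rose in all 3 models with 12 arrays, Chil4 by 2.62, 3.88 and 2.32. The mucin gene Muc5ac rose by 2.67 in mixed and 2.62 in neutrophilic mice (adjusted p = 0.00874 and 0.00756), and the chemokine gene Ccl22 by 3.56 and 3.34 (adjusted p = 0.00837 and 0.00813). With 11 arrays Agr2, which helps to fold mucins, rose in all 3 models, and Mrc1, a macrophage lectin, in eosinophilic mice by 2.40 (adjusted p = 0.0217). STAT6-like matches stood in 4 of 15 promoter windows of this list. Chil3 and Chil4 share the match TTCTTAGAA, 172 and 200 bases before their starts, Retnla has TTCACAAGAA 145 bases before its start, and Ccl17 has TTCTCTGGAA and TTCTTTGAA 154 and 99 bases before its start.

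**Figure D4:**
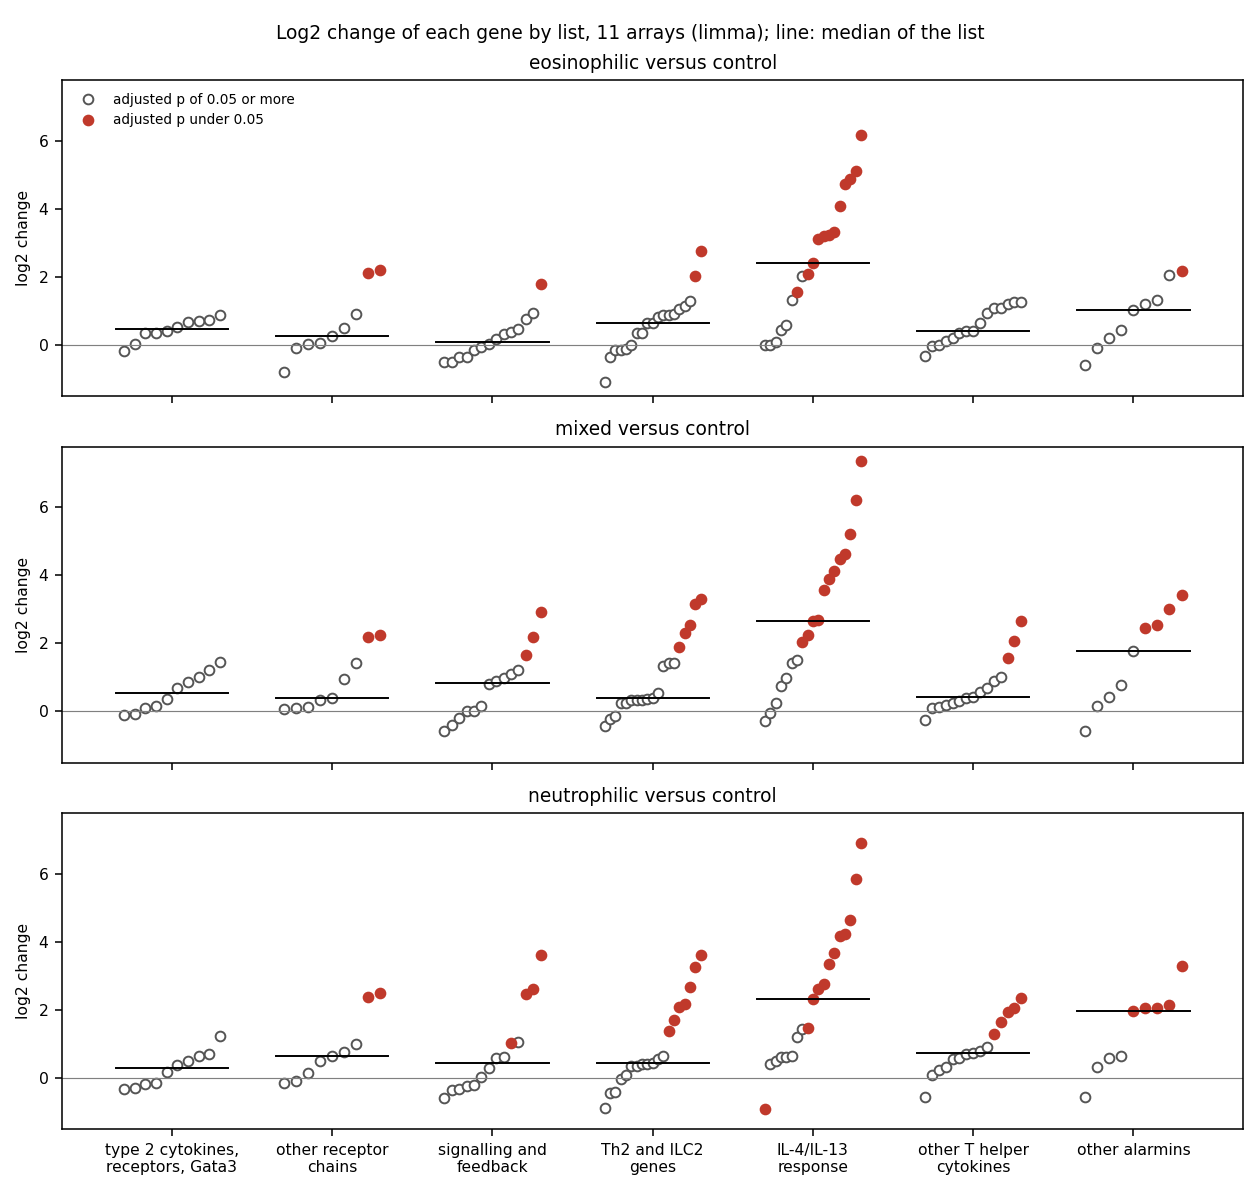
Log2 change from control of each gene (vertical axes, limma, 11 arrays) by gene list (horizontal axis), with 1 panel per model, filled points for an adjusted p under 0.05 and lines for the median of a list. The IL-4 and IL-13 response list had medians of 2.40, 2.65 and 2.32 log2 in eosinophilic, mixed and neutrophilic mice, and 0 of the 10 type 2 genes are filled.

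Genes of T helper 2 and innate lymphoid cell identity were read as another list. Of 19 measured, 1, 2 and 5 rose in eosinophilic, mixed and neutrophilic mice with 12 arrays, and 2, 5 and 7 with 11. Nfil3, a transcription factor needed for innate lymphoid cell development, rose in all 3 models, by 1.98, 3.29 and 3.62 log2 (adjusted p = 0.0462, 0.00279 and 0.000963). Il2ra, the IL-2 receptor alpha chain of activated lymphocytes, rose by 3.16 in mixed and 3.27 in neutrophilic mice (adjusted p = 0.0474 and 0.0201). Irf4 and Batf, which cooperate in T helper differentiation, rose by 2.66 and 2.16 in neutrophilic mice (adjusted p = 0.026 and 0.0424). With 11 arrays Icos rose in mixed and neutrophilic mice, by 1.90 and 1.71 (adjusted p = 0.0249 and 0.0198), and Ccr8 and Tnfrsf4 rose in neutrophilic mice, by 2.09 and 1.37 (adjusted p = 0.011 and 0.0459). These genes are also active in other immune cells.

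Among the other alarmins, Il33 was separate from control in mixed and neutrophilic mice. It measured 5.67, 10.60 and 9.61 log2 in eosinophilic mice, 11.40, 10.85 and 10.54 in mixed mice, 9.90, 9.87 and 10.17 in neutrophilic mice, and 8.20, 8.31 and 7.31 in control mice. With 11 arrays Il33 rose in each model, by 2.17, 2.99 and 2.04 (adjusted p = 0.0186, 0.00036 and 0.00275), and with 12 it passed in none (adjusted p = 0.582, 0.239 and 0.321). The list holding Il33 joins other alarmins with further upstream signals. Of its 9 measured genes, 0, 0 and 1 (Il1b) rose with 12 arrays, and 1, 4 and 5 with 11. With 11 arrays Il1a, Il1b and Pdcd1lg2 joined Il33 in mixed mice, and Cd274 too in neutrophilic mice. Of 15 other T helper cytokine genes, 0, 1 (Il6) and 3 (Il17f, Il10 and Il6) rose with 12 arrays. With 11 arrays 0, 3 (Il10, Csf2 and Il6) and 5 (these with Il17f and Tnf) rose.

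Markers of cells that could carry the 10 transcripts, and of other lung cells, were read as whole lists, not all of which are given. Means of 8 eosinophil markers spanned 5.05 to 5.70 log2 in eosinophilic and 5.20 to 5.38 in mixed mice. They spanned 4.98 to 5.60 in neutrophilic and 4.81 to 4.88 in control mice, and 0 of 8 passed in any model. Thymus or lymph node markers averaged 5.78 in mouse 7 and 4.12 to 4.84 on the other 11 arrays. Mean levels of 8 T cell markers spanned 5.59 to 6.37 log2 in eosinophilic, 5.94 to 6.70 in mixed, 5.62 to 6.81 in neutrophilic and 5.71 to 6.38 in control mice, and 0 of 8 passed in any model with either set of arrays. Cd4 differed from control by -0.36, 0.38 and 0.36. Means of 7 innate lymphoid type 2 markers spanned 5.83 to 6.73 in eosinophilic, 5.95 to 6.43 in mixed, 5.60 to 6.43 in neutrophilic and 5.31 to 5.52 in control mice. Every sensitised mouse lay above control in the mean of that list, which includes Arg1, but its markers did not move together. With 12 arrays, 5, 5 and 4 of the 7 were higher than control in eosinophilic, mixed and neutrophilic mice. Rora was among the lower ones, at 6.08, 6.80 and 6.37 log2 in these models against 7.25 in control mice. For 12 mast cell and basophil markers the spans were 4.86 to 5.23 in eosinophilic, 4.84 to 4.92 in mixed, 5.01 to 5.19 in neutrophilic and 4.55 to 4.73 in control mice. Macrophage markers, whose cells express Il4ra, spanned 6.43 to 8.89 in eosinophilic, 8.65 to 9.16 in mixed, 8.20 to 8.99 in neutrophilic and 7.36 to 7.86 in control mice. Neutrophil markers spanned 5.99 to 7.48 in eosinophilic, 7.67 to 8.27 in mixed, 7.22 to 8.79 in neutrophilic and 5.64 to 6.30 in control mice. Means of 9 tuft cell markers reached at most 5.38 in eosinophilic, 4.95 in mixed, 5.08 in neutrophilic and 4.75 in control mice. All 3 eosinophilic and all 3 neutrophilic means lay above every control mean, the mixed means overlapped control, and 0 of 9 markers passed. Lung epithelial means spanned 6.39 to 10.5 in eosinophilic, 10.5 to 10.9 in mixed, 10.1 to 10.7 in neutrophilic and 10.6 to 10.8 in control mice. For 5 endothelial markers the spans were 6.47 to 10.1 in eosinophilic, 9.55 to 10.3 in mixed, 9.19 to 9.84 in neutrophilic and 10.8 to 11.1 in control mice, and 0 passed with 12 arrays, while 1, 2 and 3 fell in eosinophilic, mixed and neutrophilic mice with 11. The part of these shifts in the differences of the 10 genes was not tested.

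For the 3 genes with the largest change, the genes with the nearest pattern were those with the smallest root mean square difference over 11 arrays, after each gene was centred on its control mean. For Il4ra these were Glipr2 (0.215 log2), Plet1 (0.227) and Cd302 (0.232). Glipr2 differed from control by 0.63, 1.48 and 1.48 log2 in eosinophilic, mixed and neutrophilic mice. For Il5 they were Fer1l6 (0.276), Itln1 (0.310) and Nup210l (0.312), and for Il13ra1 Mak16 (0.282), Lix1l (0.292) and Wdr43 (0.300).

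The genes beside the cytokine cluster, chosen by position in the RefSeq gene order and not by the rule for named genes, were Sowaha, Septin8, Kif3a, Rad50, Irf1, Slc22a5 and Slc22a21. Rad50, a DNA repair gene between Il13 and Il5, differed from control by -0.79 log2 in eosinophilic and -0.71 in mixed mice and fell by 1.20 in neutrophilic mice (adjusted p = 0.115, 0.372 and 0.0348). Irf1, on the other side of Il5, encodes an interferon response factor. It differed by -0.91, 1.42 and 1.77 in eosinophilic, mixed and neutrophilic mice with 12 arrays. With 11 arrays its eosinophilic difference was 0.19, and it rose in neutrophilic mice (adjusted p = 0.0105). Kif3a, a kinesin gene beside Il4, fell by 0.87 in neutrophilic mice with 11 arrays (adjusted p = 0.0415, against 0.16 with 12). The other 4 neighbours passed in no model with either set of arrays.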

How the data were processed

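Total RNA (300 ng) of whole lung from 12 mice was hybridised to 1 array each. The deposited values are log2 intensities. Per the submitters' processing notes, the authors summarised them by RMA, using Affymetrix Expression Console. Tool versions were not given in the sources used here, and the log base was inferred from how high the values run. RMA normalizes quantiles, yet the SDs of the deposited arrays still differ. Eosinophilic mouse 7, with the smallest SD, had the highest 25th percentile of the 12 arrays (4.92 log2) and the lowest 75th (6.08). The part of this in the values of single probe sets was not tested.

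The table held 34760 probe sets, of which 21640 carried a single symbol in the platform annotation. Where a gene had several, the one with the highest mean was used, which left 19937 genes. Groups were taken from the labels. Each sample is a separate mouse, and the number of arrays limits the precision. limma 3.58.1 in R 4.3.3 was fitted to all 12 arrays with group as the only factor (lmFit, eBayes without trend, two-sided). P values were adjusted by Benjamini-Hochberg over all 19937 genes within each of 6 comparisons, with a threshold of 0.05. The script was tested on simulated data.

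The 10 genes and the gene lists were chosen with earlier results of these data known. All 10 genes were named. Other list genes (markers aside) were named where they passed the threshold against control with 12 or 11 arrays, at most 12 for a list by smallest p, or where their role pairs with one of the 10. Nearest patterns were sought for 3 of the genes. Alternatives were a filter on dim probe sets (log2 of at least 5 on 3 or more arrays), median centring, quantile normalization, trend and robust moderation, separate fits of each pair of groups, averaging the probe sets of a gene, and leaving out arrays. Not measured among the list genes were Il2rg, Il1rl1, Jak3, Areg, Fcgbp and Il22. Promoter windows came from RefSeq (GRCm38.p6).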

Additional observations from a re-analysis of the deposited data

How the results depend on the processing

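Of 876 values of the 10 genes under alternatives, 856 stayed on their side of the threshold, 19 passed it in the same direction, 0 lost it and 1 called value turned its sign. Of the 856, 66 values, none of them called, turned their sign, such as Il4ra and Il9 in eosinophilic mice. The called value was Il4ra in eosinophilic mice, which measured log2 1.49 (adjusted p = 0.0267) without eosinophilic mice 7 and 9 and neutrophilic mouse 23, a fit with 1 eosinophilic mouse, assumed to vary like the other groups. No gene of the 10 was called in the fit of all 12 arrays or in that of 11 arrays, with the deposited values. Other calls of the 10 genes without those 3 arrays are not listed, because that fit held 1 eosinophilic mouse. Fits of only the 2 groups compared called 3 in mixed mice (Il5, Il4ra and Il13ra1) and 1 in neutrophilic mice (Il4ra). Among all 19937 genes those fits called 1689 in mixed and 2124 in neutrophilic mice. Quantile normalization of 11 arrays, chosen after these data were seen, called 1 (Il4ra) in each of these models. It called 750 and 2095 of all genes there.

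Leaving out each mouse in turn gave 0 to 3 calls in eosinophilic mice against control, 0 to 4 in mixed against eosinophilic mice and 0 to 2 in neutrophilic against eosinophilic mice, each highest without eosinophilic mouse 8. It gave 0 to 0 in the other comparisons.

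The number of all genes called moved more. In eosinophilic mice it was 99, and 2 with median centring, 51 with quantile normalization, 237 with the dim filter, 285 with trend and robust moderation and 0 with only the 2 groups. Without mouse 7 it was 266, without the 3 arrays 432, and 390 with quantile normalization of 11 arrays. The share of higher calls was 15.2% in the planned fit and 60.8% with quantile normalization. In mixed mice the count was 94, and between 23 (median centring) and 1859 (without the 3 arrays). In neutrophilic mice it was 421, and between 168 and 3188 under the same settings. With the planned fit the share of higher calls was 69.1% in mixed and 31.4% in neutrophilic mice, against 82.6% and 54.4% with quantile normalization. Between models it was 1, 23 and 0 for mixed against eosinophilic, neutrophilic against eosinophilic and neutrophilic against mixed mice, and 24, 265 and 53 without the 3 arrays. Leaving out single mice gave 1 to 8264, 6 to 25 and 17 to 365 in eosinophilic, mixed and neutrophilic mice against control. Between models it gave 0 to 5979, 0 to 2777 and 0 to 0, in the same order. The counts of 8264, 5979 and 2777 were those without eosinophilic mouse 8. For the 42 other named genes, 312 of 3762 values passed the threshold anew and 193 lost it, and no called value turned its sign. The cause of these shifts was not tested. With 3 mice a group, probe sets near the low end of the arrays limit what can be said of Tslp, Il9, Il25 and Il13ra2. No paired analysis was possible because the groups share no replicate numbers.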
